A study of Canis lupus familiaris with 36 samples.

Results

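AMPH, SNAP91, SH3GL3, FNBP1L, NSG1 and ANK3 are 6 of the 15115 genes measured on canine expression arrays in lymphoma tissue from 35 dogs. They were chosen by their log2 intensities in these same arrays, being bright in high-grade T-cell lymphomas. Their difference from low-grade T-cell lymphoma is therefore given as a description with no test. The genes were found by symbol in the platform annotation, which pairs 26 probe sets with them, and each gene is represented by the probe set whose mean over the arrays was highest. Values are log2 intensities, and values under log2 4 (intensity 16), here called the minimum, were given no order. Means, limma fits and correlations still used them as measured unless stated otherwise.

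The high-grade T-cell tumours were 4 labelled LBT and 4 labelled PTCL (peripheral T-cell lymphoma), and their low-grade counterpart was 9 TZL (T-zone lymphoma). The LBT dogs were 3 to 10 years old and included 3 Golden Retrievers, 1 male and 3 females. The PTCL dogs were 6 to 14 years old, 1 of them a Golden Retriever, with 2 males and 2 females, and PTCL replicate 4 carried an intermediate grade where the other 3 were high grade. The TZL dogs were 7 to 11 years old, 8 of the 9 Golden Retrievers, with 6 males and 3 females. The B-cell tumours were 10 high-grade DLBCL (diffuse large B-cell lymphoma, 4 to 14 years, 6 Golden Retrievers), 2 high-grade BL (2 and 5 years, 1 Golden Retriever) and 5 low-grade MZL (marginal zone lymphoma, 4 to 10 years, 4 Golden Retrievers). The remaining breeds were Labrador in LBT, Boxer and Bichon Frise in PTCL, and Mastiff in TZL. In the B-cell tumours they were Rottweiler, Boxer and Labrador in DLBCL, German Shepherd in BL and Mastiff in MZL. LBT and BL are used as the labels give them. Each dog was a separate case of spontaneous disease, and 1 low-grade tumour labelled NBNT stood in no group. Subtype, grade, breed and age ran together in part, so their effects cannot be told apart here.

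The primary tumours had been broken up mechanically and filtered before RNA was made, so each array measured a mixture of tumour and bystander cells. In such bulk RNA, fewer cells of a type and less RNA per cell cannot be told apart. T-cell markers had a mean log2 intensity of 10.73 to 11.52 in the LBT dogs, 9.09 to 11.16 in the PTCL dogs and 10.56 to 11.40 in the TZL dogs, against 5.83 to 7.73 in the DLBCL dogs. On each array 32.2% to 35.5% of the probe sets reached the minimum. In 6 dogs (PTCL replicate 3, TZL replicates 1, 2 and 7, DLBCL replicates 4 and 9) the actin 3′ control reached a log2 value of 13 and the arrays stood apart from the rest. Results that these arrays change are given with and without them.

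Clathrin-mediated endocytosis takes up pieces of the plasma membrane, with receptors bound to them, in vesicles. Adaptor proteins gather the cargo under a clathrin coat, proteins with a crescent-shaped BAR or F-BAR domain bend the membrane into a neck, and dynamin cuts the vesicle free. Neurons carry specialised forms of several of these proteins, since they must recover synaptic vesicles quickly after release. AMPH encodes amphiphysin, a BAR protein enriched at nerve terminals that binds dynamin. SNAP91 encodes AP180, the neuronal clathrin assembly protein, and SH3GL3 encodes endophilin A3, a further BAR protein. FNBP1L encodes Toca-1, an F-BAR protein that links membrane curvature to actin assembly. NSG1 encodes a small neuronal protein of endosomes that takes part in receptor recycling. ANK3 encodes ankyrin-G, which ties membrane proteins to the spectrin skeleton at the axon initial segment and at the lateral membrane of epithelial cells.

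On their representative probe sets all 6 genes were bright in every LBT dog. Of the 4 PTCL dogs, 3 were bright for AMPH, SNAP91, NSG1 and ANK3, 1 was bright for SH3GL3, and for FNBP1L 2 just reached the minimum. The 9 TZL dogs lay below the minimum for 5 of the genes, and for FNBP1L 8 of the 9 did. In B-cell tumours the same 5 genes lay below the minimum, except AMPH and ANK3 in DLBCL replicate 3. FNBP1L reached it in 7 of 10 DLBCL, 2 of 2 BL and 5 of 5 MZL dogs.

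**Figure D1:**
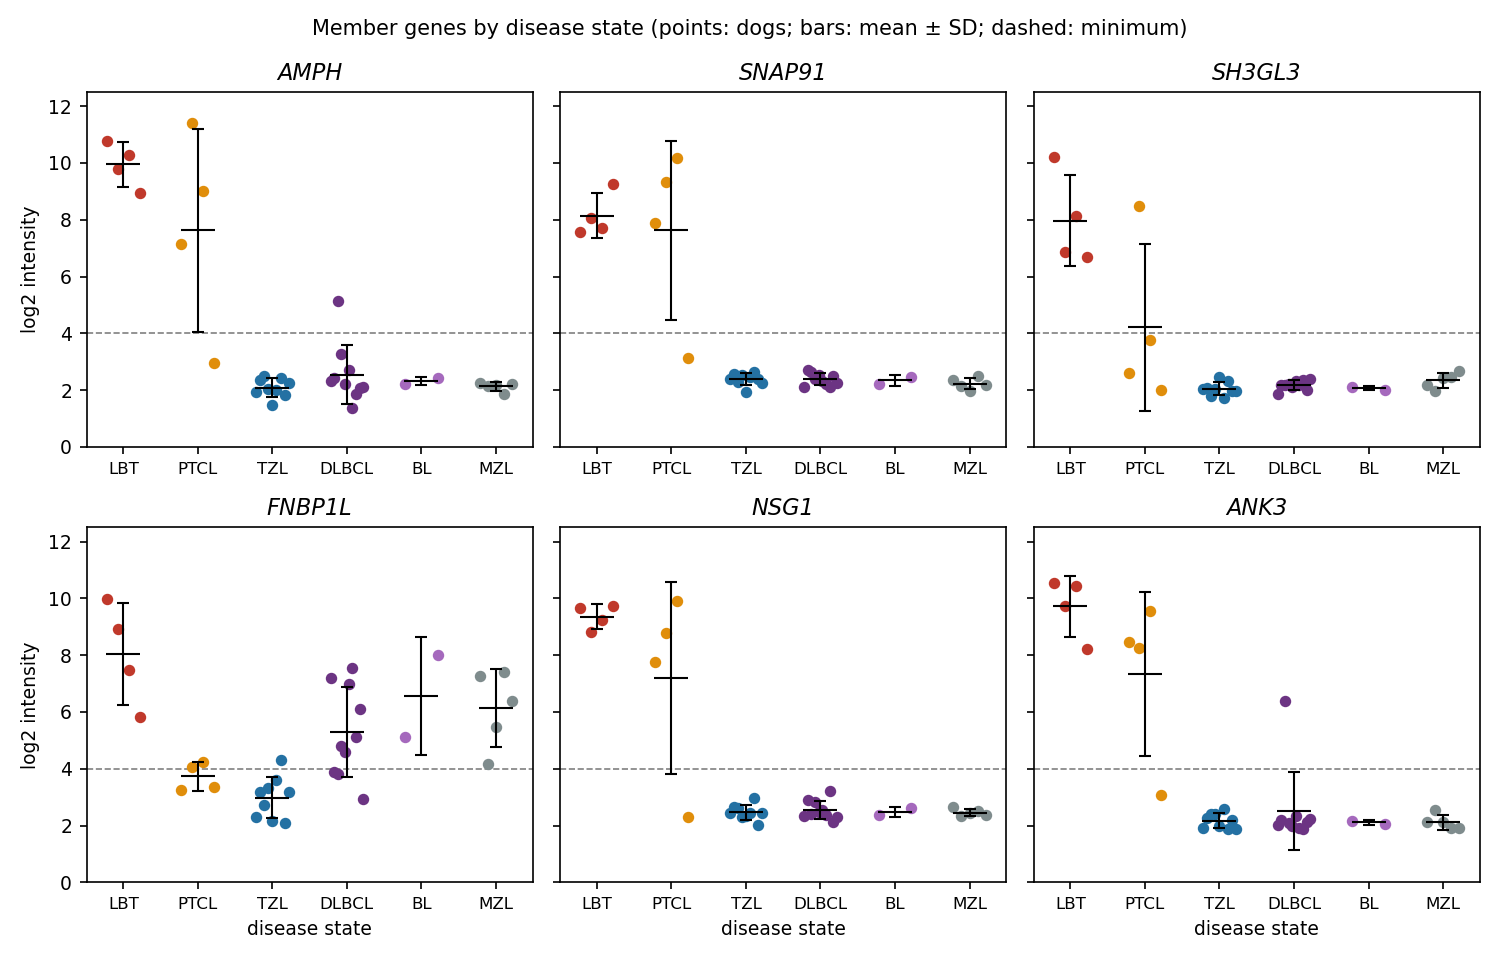
Log2 intensity of each of the 6 genes (vertical axis) in every dog of the 6 disease states (horizontal axis), with points for dogs, black bars for the mean ± SD and a dashed line at the minimum of 4. AMPH, SNAP91, NSG1 and ANK3 are bright in all 4 LBT and 3 of the 4 PTCL dogs, SH3GL3 in 1 PTCL dog, and FNBP1L is also bright in many B-cell tumours.

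AMPH, amphiphysin, had log2 intensities of 10.78, 9.78, 10.27 and 8.95 in LBT replicates 1 to 4. In PTCL replicates 1 to 4 it had 7.14, 11.42, 9.01 and 2.96. In the 9 TZL dogs its lowest, median and highest values were 1.46, 2.05 and 2.49. The highest value of any dog was thus a PTCL tumour's, and PTCL replicate 4 fell below the minimum together with every TZL dog. The mean was 9.95 ± 0.78 in LBT (SD, n = 4) and 7.63 ± 3.57 in PTCL (SD, n = 4). Because no TZL dog reached the minimum, the fold can be stated only as a bound against it: AMPH was at least 61.7-fold higher in LBT than in TZL and at least 12.4-fold higher in PTCL than in TZL. The PTCL bound was 36.5 without PTCL replicate 4 and 5.18 without PTCL replicate 2. Of the B-cell tumours only DLBCL replicate 3, at 5.16, reached the minimum.

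SNAP91, the clathrin assembly protein AP180, had log2 intensities of 7.56, 8.07, 7.70 and 9.27 in LBT replicates 1 to 4. The PTCL replicates 1 to 4 had 7.89, 9.32, 10.18 and 3.12, and the TZL dogs had 1.93, 2.39 and 2.64 as lowest, median and highest value. PTCL replicates 1 to 3 therefore lay within or above the LBT range, and PTCL replicate 4 lay below the minimum. The mean was 8.15 ± 0.78 in LBT and 7.62 ± 3.15 in PTCL (SD, n = 4 each). The bound on the fold was at least 17.8 for LBT over TZL and at least 12.3 for PTCL over TZL. The PTCL bound was 34.9 without PTCL replicate 4 and 6.84 without PTCL replicate 3. No B-cell tumour reached the minimum.

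SH3GL3, endophilin A3, divided the T-cell tumours differently. It had log2 intensities of 10.20, 6.85, 8.15 and 6.70 in LBT replicates 1 to 4, and 2.60, 8.48, 3.78 and 2.00 in PTCL replicates 1 to 4. Only PTCL replicate 2, the tumour brightest for AMPH, overlapped the LBT range, and the other 3 PTCL dogs lay below the minimum. The TZL dogs had 1.72, 2.04 and 2.47 as lowest, median and highest value, and no B-cell tumour reached the minimum. The mean was 7.97 ± 1.62 in LBT and 4.22 ± 2.94 in PTCL (SD, n = 4 each). SH3GL3 was at least 15.7-fold higher in LBT than in TZL. The PTCL mean lay 1.16-fold above the minimum and rested on PTCL replicate 2. Without that dog it was 0.43 of the minimum, so no bound is stated for PTCL against TZL.

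FNBP1L, the F-BAR protein Toca-1, had the widest distribution of the 6 genes over disease states. Its log2 intensity was 9.96, 8.92, 7.47 and 5.81 in LBT replicates 1 to 4. In PTCL replicates 1 to 4 it was 3.23, 4.08, 4.23 and 3.37, and in the TZL dogs it was 2.10, 3.17 and 4.31 as lowest, median and highest value. The LBT values lay above all PTCL and all TZL values, and the PTCL and TZL values overlapped around the minimum. With lower values raised to the minimum, FNBP1L was 16.0-fold higher in LBT than in TZL, and the PTCL-to-TZL ratio was 1.03.

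B-cell tumours spanned most of the FNBP1L scale. The log2 intensity ran from 2.95 to 7.56 in the DLBCL dogs, with means of 5.30 ± 1.59 in DLBCL (SD, n = 10), 6.14 ± 1.36 in MZL (SD, n = 5) and 6.56 ± 2.06 in BL (SD, n = 2). In the order of the means, LBT with 8.04 ± 1.80 was followed by BL, MZL, DLBCL, PTCL with 3.73 ± 0.50 and TZL with 2.99 ± 0.73. Every neighbouring pair in this order overlapped in range. The DLBCL minus MZL difference of -0.84 on the log2 scale (SE 0.69) did not pass the limma test, with an adjusted p of 0.659. In that comparison the test called 0% of the 7500 genes, while 977 genes had an unadjusted p under 0.05. The other 5 genes had no fold there, since all MZL dogs and nearly all DLBCL dogs lay below the minimum.

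NSG1, the neuronal endosome protein, had the tightest LBT values, with log2 intensities of 9.67, 8.81, 9.24 and 9.72 in replicates 1 to 4. The PTCL replicates 1 to 4 had 7.76, 8.78, 9.91 and 2.31, and the TZL dogs had 2.02, 2.44 and 2.96 as lowest, median and highest value. PTCL replicate 3 exceeded every LBT dog, and PTCL replicate 4 lay below the minimum. The mean was 9.36 ± 0.43 in LBT and 7.19 ± 3.37 in PTCL (SD, n = 4 each). NSG1 was at least 41.0-fold higher in LBT than in TZL and at least 9.14-fold higher in PTCL than in TZL. The PTCL bound was 28.2 without PTCL replicate 4 and 4.87 without PTCL replicate 3. No B-cell tumour reached the minimum.

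ANK3, ankyrin-G, had log2 intensities of 10.54, 9.71, 10.44 and 8.21 in LBT replicates 1 to 4. In PTCL replicates 1 to 4 it had 8.46, 8.24, 9.55 and 3.07, and in the TZL dogs 1.87, 2.19 and 2.59 as lowest, median and highest value. PTCL replicates 1 to 3 lay within the LBT range. The mean was 9.73 ± 1.07 in LBT and 7.33 ± 2.90 in PTCL (SD, n = 4 each). The bound on the fold was at least 52.9 for LBT over TZL and at least 10.1 for PTCL over TZL. The PTCL bound was 26.9 without PTCL replicate 4 and 6.03 without PTCL replicate 3. DLBCL replicate 3, at 6.38, was the one B-cell tumour that reached the minimum. No other ANK3 probe set reached it in this dog, the highest being at 3.37. The epithelial markers of DLBCL replicate 3 had a mean log2 intensity of 7.38, against 1.96 to 6.15 in the other DLBCL dogs. Their summed intensity was higher in DLBCL replicate 8, at 2290 against 1684, and ANK3 was at 1.93 there. The part of these markers in the ANK3 value was not tested.

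For scale, every LBT dog at or above the minimum with every TZL dog below it was seen for 0.933% of the 7500 genes tested, among them all of these genes except FNBP1L, for which TZL replicate 7 reached 4.31. The LBT range lay wholly above the TZL range for 10.3% of genes tested and for all 6 of these. The same contrast chose the genes, so nothing is read from these counts. All 6 passed the filter, which asked for log2 4 or more in no fewer than 4 of 34 dogs, and 5 of them did so almost entirely through the LBT and PTCL dogs.

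The difference between LBT and PTCL is given as a description too. How the genes were first picked is not recorded, and FNBP1L and SH3GL3 were bright mainly through LBT among the T-cell tumours, so this contrast is not independent of the choice. FNBP1L had a LBT minus PTCL difference of 4.31 on the log2 scale (SE 0.90, n = 4 each), with no overlap between the groups. SH3GL3 had a difference of 3.76 (SE 0.76), with PTCL replicate 2 inside the LBT range, and it reached the minimum only in the 4 LBT dogs and that 1 PTCL dog. Both SEs come from the limma fit, where all 34 dogs share 1 spread per gene, and do not measure the spread within LBT and PTCL. With lower values raised to the minimum, the differences were 3.96 for FNBP1L and 2.85 for SH3GL3. For scale, the limma test with an adjusted p under 0.05 called 0.68% of all 7500 genes in either direction, 0.467% as higher in LBT and 0.213% as lower in LBT. The LBT range lay wholly above the PTCL range for 2.61%, and nothing about the 6 genes is read from these shares.

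For the other 4 genes the difference between LBT and PTCL was smaller than 1 SD of the PTCL dogs. AMPH had a difference of 2.32 on the log2 scale (SE 0.91), NSG1 of 2.17 (SE 0.77), ANK3 of 2.39 (SE 0.87) and SNAP91 of 0.53 (SE 0.73). These SEs too rest on the spread shared by all 34 dogs and understate the spread among the PTCL dogs. The PTCL SD was 3.57 for AMPH, 3.37 for NSG1, 2.90 for ANK3 and 3.15 for SNAP91. Single PTCL tumours set the size of the differences. Without PTCL replicate 4 the differences were 0.76 for AMPH, 0.54 for NSG1, 0.97 for ANK3 and -0.98 for SNAP91, for which PTCL then had the higher mean. Without PTCL replicate 2 the AMPH difference was 3.58, and without PTCL replicate 3 the NSG1 difference was 3.07.

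**Figure D2:**
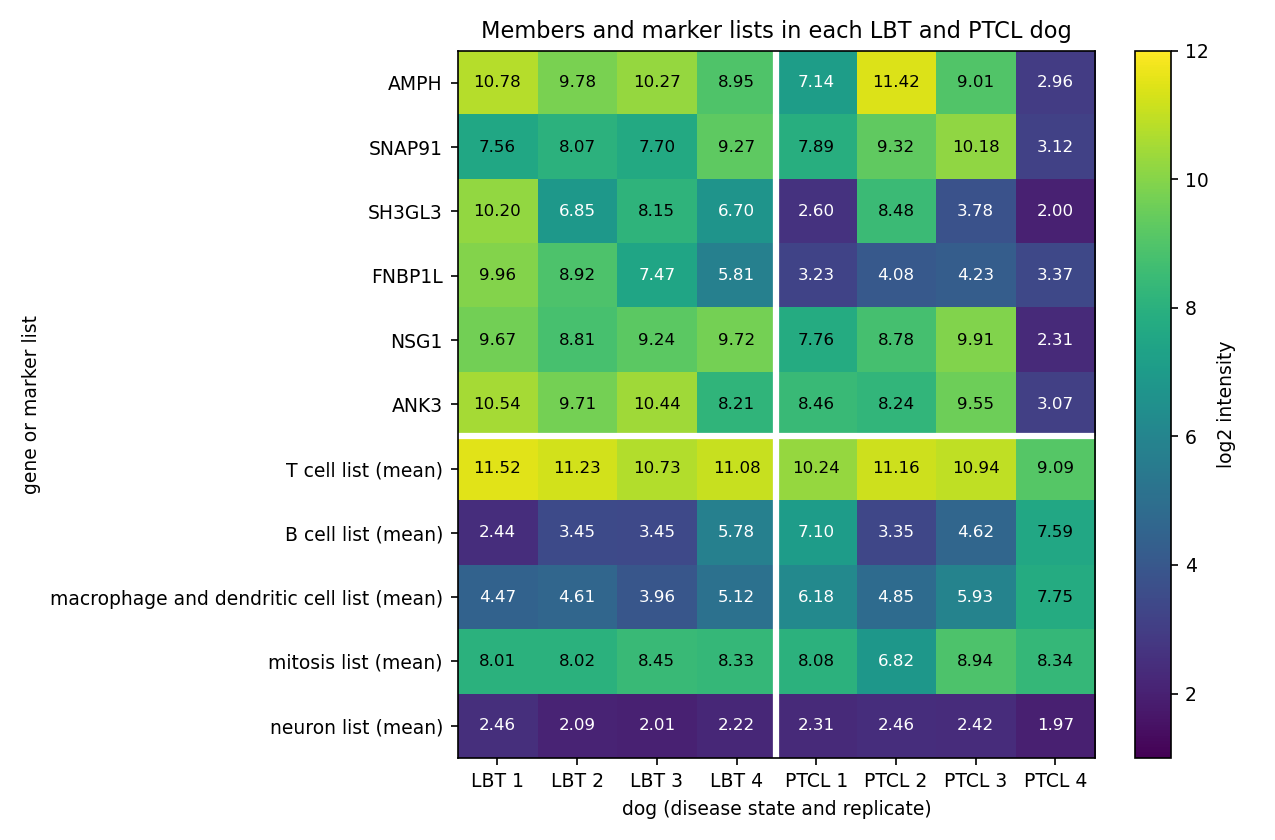
Log2 intensity of the 6 genes (upper rows) and mean log2 intensity of 5 marker lists (lower rows) in the 4 LBT and 4 PTCL dogs (columns), with each value printed and coloured on a common scale. PTCL 4 is dark for all 6 genes while its T-cell list is at 9.09, and the neuron list is dark in all 8 dogs.

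PTCL replicate 4, the intermediate-grade tumour, was below the minimum for all 6 genes. Its T-cell markers had a mean log2 intensity of 9.09, against 10.24, 11.16 and 10.94 in PTCL replicates 1 to 3. Its macrophage and dendritic cell markers were at 7.75, against 6.18, 4.85 and 5.93, and its B-cell markers at 7.59, against 7.10, 3.35 and 4.62. Mitosis genes were at 8.34 in this tumour, within the 6.82 to 8.94 of the other PTCL dogs. The part of grade, breed, age and cell mixture in the low values of this tumour was not tested.

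Probe sets that the choice of a representative had not used mostly followed the representatives. Of the 20 further probe sets of these genes, 17 reached the minimum in at least 1 dog, and 13 of the 17 had a Pearson r of at least 0.9 with the representative over 34 dogs. Leaving FNBP1L aside, 20 probe sets, now counting the representatives, reached the minimum, and PTCL replicate 4 and every TZL dog lay below it in all 20. In 15 of the 20 every LBT dog lay at or above it. The representatives' values chose the genes, so these counts are a description only. The 3 probe sets that stayed below the minimum in every dog belonged to AMPH, SH3GL3 and FNBP1L, 1 each. Probe sets of a gene share the RNA of the dog, so they bear on the probes and not on the number of tumours.

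**Figure D3:**
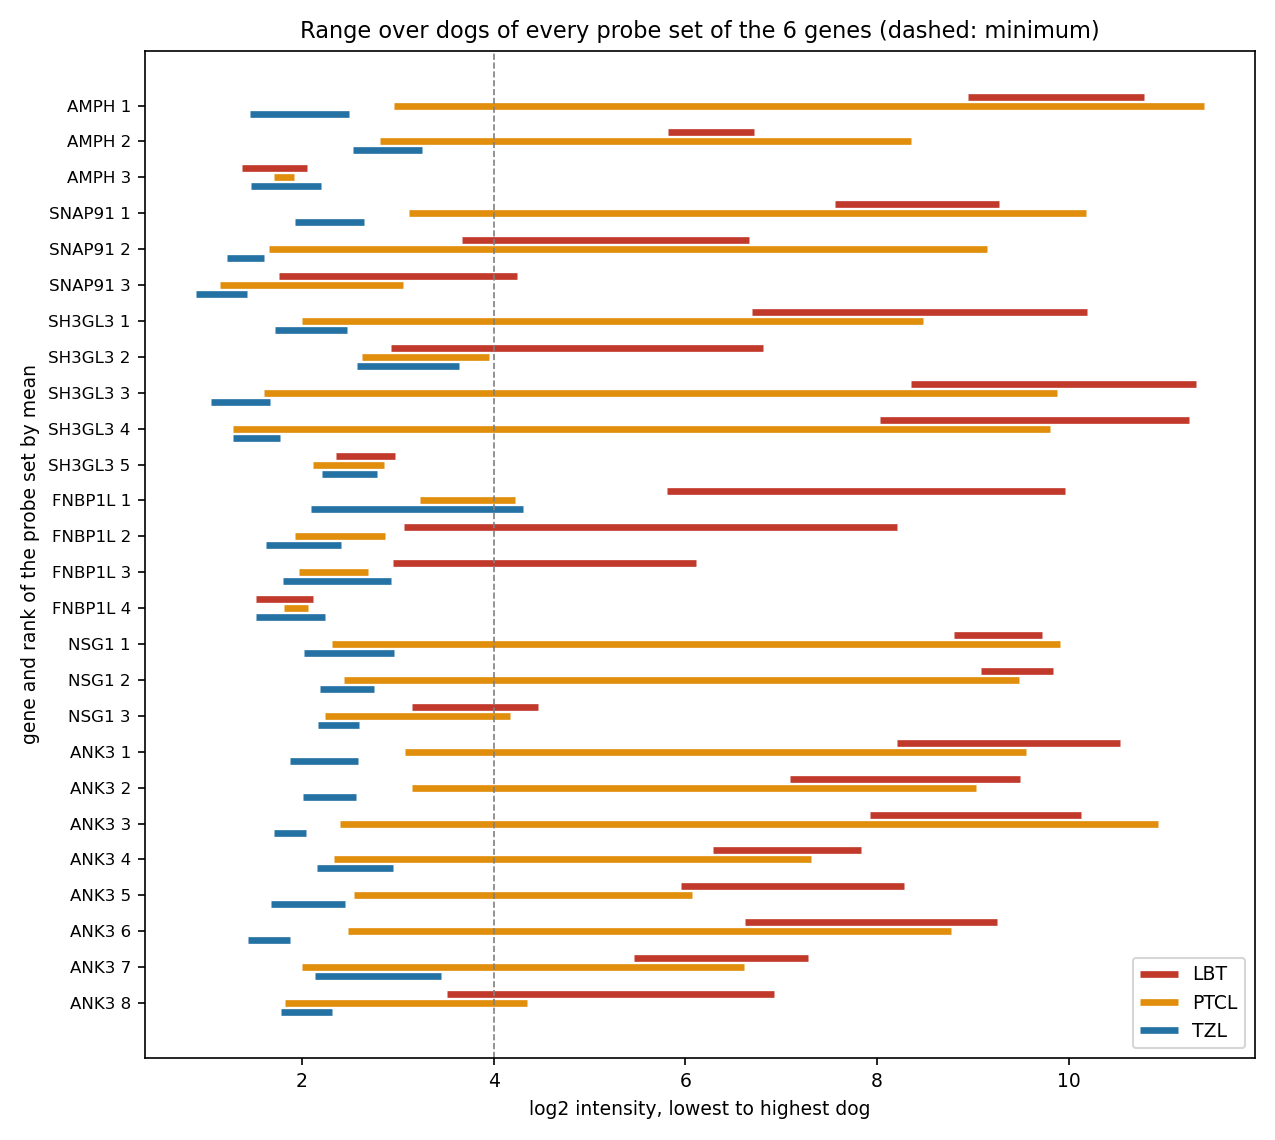
Range from the lowest to the highest dog (horizontal axis, log2 intensity) of each of the 26 probe sets of the 6 genes (rows, ranked by mean within a gene) in LBT, PTCL and TZL, with a dashed line at the minimum of 4. The TZL ranges lie below the line for every probe set except the representative of FNBP1L, and the PTCL ranges stretch from below the line to LBT levels for most probe sets outside FNBP1L.

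For NSG1, AMPH and ANK3 the further probe sets differed in brightness. The second NSG1 probe set had r = 0.99 with the representative, at 9.68, 9.08, 9.21 and 9.84 in LBT replicates 1 to 4 and 7.87, 8.61, 9.48 and 2.43 in PTCL replicates 1 to 4. The second AMPH probe set was dimmer, at 6.72, 6.71, 6.36 and 5.82 in LBT and 4.74, 8.35, 5.83 and 2.81 in PTCL in the same order of dogs, with r = 0.97. On these probe sets PTCL replicate 4 was again the one LBT or PTCL dog below the minimum. The LBT minus PTCL difference of AMPH was 0.97 on its second probe set, against 2.32 on the representative. The NSG1 probe set with rank 3 reached the minimum in 1 LBT and 1 PTCL dog only. The other 7 ANK3 probe sets had r from 0.90 to 0.98 with the representative, and on 6 of them every LBT dog reached the minimum. On the ANK3 probe set with rank 3 by mean, PTCL replicate 3 had 10.93, above every LBT dog, of which replicate 1 was the highest at 10.13. On those with ranks 4 and 7, PTCL replicate 1 lay below the minimum, at 3.47 and 3.54.

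SH3GL3 and SNAP91 showed how far the probe set matters between LBT and PTCL. The SH3GL3 probe set with rank 3 by mean read 11.33, 8.71, 9.79 and 8.35 in LBT replicates 1 to 4, and 3.45, 9.87, 5.33 and 1.60 in PTCL replicates 1 to 4. PTCL replicates 2 and 3 both reached the minimum on it, where the representative had shown only replicate 2. The second SH3GL3 probe set reached the minimum in LBT replicate 1 alone, at 6.81, and its LBT minus PTCL difference was 1.13. The second SNAP91 probe set read 4.22, 4.36, 3.67 and 6.66 in LBT replicates 1 to 4, and 5.03, 6.34, 9.15 and 1.66 in PTCL replicates 1 to 4. Its LBT minus PTCL difference was -0.82, opposite in sign to that of the representative. For FNBP1L the second probe set gave a difference of 2.81. Of the LBT dogs only replicates 1 and 2 reached the minimum on it, with 3.99 and 3.07 in replicates 3 and 4. On the FNBP1L probe set with rank 3, LBT replicate 1 alone reached the minimum, at 6.12. The brightness of FNBP1L in every LBT dog thus rests on its representative.

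Whether the genes vary together among the tumours was asked over the 8 LBT and PTCL dogs, after each group's own mean had been removed. Over the 15 gene pairs the Pearson r had a median of 0.48, and over the 10 pairs without FNBP1L it ranged from 0.40 to 0.97 with a median of 0.82. For scale, r over all pairs of the 7500 genes in the same dogs had a median of 0.00, with 5% below -0.71 and 5% above 0.71. The genes studied here were chosen for brightness in high-grade T-cell tumours of these same arrays, and the 7500 genes were not. The part of this choice in their r was not tested, so nothing is read from the comparison. The permutation tests of the pairs used the same dogs and share this limit. An exact two-sided permutation test within groups (576 permutations) gave 3 of the 15 pairs a p of at most 0.05, and 0 of 15 passed after Benjamini-Hochberg adjustment over the 15 pairs, where the smallest adjusted p was 0.219.

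SNAP91 and NSG1 formed the closest pair, with r = 0.97 (exact permutation p = 0.0174, adjusted p 0.219) and Spearman rho = 0.87 (exact permutation p = 0.0365). In both genes PTCL replicate 3 was the highest PTCL dog, replicate 4 the lowest, and LBT replicate 4 the highest LBT dog. Without the 2 dogs farthest from the SNAP91 median, r was 0.75. AMPH and SH3GL3 had r = 0.82 (exact permutation p = 0.0486, adjusted p 0.219) and rho = 0.96 (exact permutation p = 0.00694). In these genes LBT replicate 1 was the highest LBT dog, LBT replicate 4 the lowest, and PTCL replicate 2 the highest PTCL dog. Without the 2 dogs farthest from the AMPH median, their r was 0.62. The remaining pair at that level was AMPH and FNBP1L, with r = 0.36 (exact permutation p = 0.0486, adjusted p 0.219). For SH3GL3, 3 of the 4 PTCL dogs lay below the minimum, so its r and rho with AMPH use an order among values given none. With lower values raised to the minimum, 1 of the 15 pairs had an exact permutation p of at most 0.05. The smallest adjusted p was then 0.260, and the median r of the 10 pairs without FNBP1L was 0.75.

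Most of the common variation rested on PTCL replicate 4. Without this dog the median r of the 10 pairs without FNBP1L was 0.22, with a range from -0.31 to 0.94. NSG1 and ANK3 had r = 0.91 over 8 dogs and 0.23 without it, and SNAP91 and ANK3 had 0.81 over 8 dogs and -0.31 without it. AMPH and SH3GL3 had r = 0.94 over the 7 remaining dogs, with an exact permutation p of 0.00694, the smallest that the 144 permutations can give, and an adjusted p of 0.104. PTCL replicates 1 and 3 lay below the minimum for SH3GL3, so this r too uses an order among values given none. SNAP91 and NSG1 had r = 0.77 over the same 7 dogs (exact permutation p = 0.125, adjusted p 0.469).

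**Figure D4:**
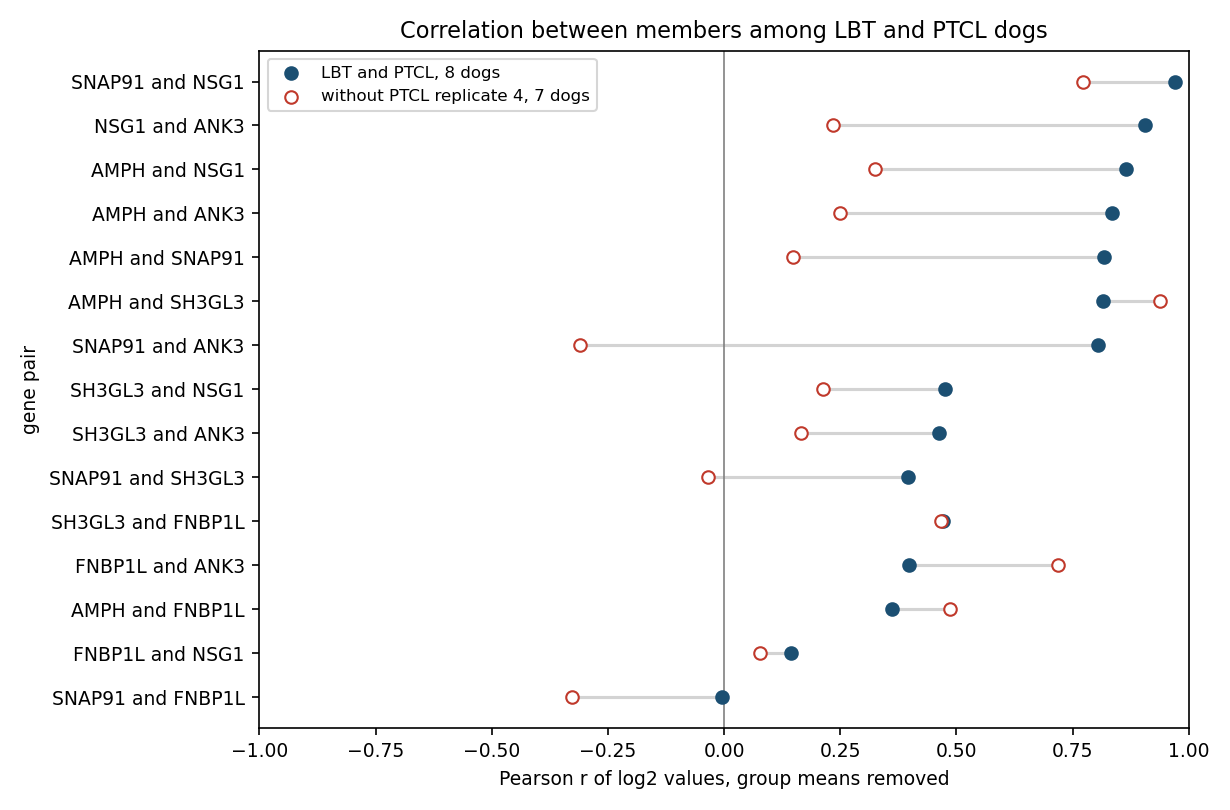
Pearson r between log2 values of each gene pair (rows) among LBT and PTCL dogs with group means removed, for all 8 dogs (filled) and without PTCL replicate 4 (open). The open points lie left of the filled ones for most pairs without FNBP1L, and AMPH with SH3GL3 is the pair that keeps the highest r, at 0.94.

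The pairs with FNBP1L had lower r over 8 dogs. Its r with the other 5 genes over the 8 dogs had a median of 0.36, from -0.0049 with SNAP91 to 0.47 with SH3GL3. LBT replicate 1 was the highest LBT dog for FNBP1L and the lowest for SNAP91. Without PTCL replicate 4 the median of these 5 pairs was 0.47, with 0.72 for ANK3, above the 0.22 of the other 10 pairs. Without PTCL replicate 3, whose array stands apart, the median r of the 10 other pairs was 0.84.

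Over all 34 dogs AMPH, SNAP91, NSG1 and ANK3 were among the 6 closest genes to each other, in values that span the contrast that chose them. ANK3 ranked first of 7499 genes for AMPH (r = 0.97) and NSG1 ranked first for SNAP91 (r = 0.98). SH3GL3 stood farther off, with ranks of 19 for AMPH, 42 for NSG1, 43 for ANK3 and 80 for SNAP91. FNBP1L had rank 1506 for AMPH, with r = 0.33. The nearest genes outside the 6 were PLAT, which encodes tissue plasminogen activator, the heparan sulfate proteoglycan GPC4, the matrix-associated protein SMOC2, the amyloid precursor protein APP, the transcription factor MYB of early blood cells, and ZCCHC12.

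PLAT was the closest outside gene for NSG1 (r = 0.97) and among the 3 closest for AMPH (r = 0.96), SNAP91 (r = 0.94), SH3GL3 (r = 0.93) and ANK3 (r = 0.93). Its log2 intensity ran from 8.60 to 10.32 in the LBT dogs and from 2.70 to 9.95 in the PTCL dogs, with a TZL maximum of 3.95. MYB was the closest outside gene for AMPH (r = 0.96) and SH3GL3 (r = 0.94), with 9.43, 7.88, 8.57 and 7.08 in LBT replicates 1 to 4 and 4.62, 9.09, 6.35 and 3.53 in PTCL replicates 1 to 4. The order of dogs in MYB was that of AMPH within each group. SMOC2 led for ANK3 (r = 0.94) and GPC4 for SNAP91 (r = 0.95), while APP had rank 3 for SNAP91 and NSG1 (r = 0.94 each) and ZCCHC12 rank 3 for SH3GL3 (r = 0.91).

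The closest genes to FNBP1L were MAP3K4, KDM1A and SLC25A17, each with r = 0.74, a kinase, a histone demethylase and a peroxisomal carrier that were bright in every group. These r values span groups that differ as a whole and are given as a description.

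Of 99 other genes of clathrin coats, BAR proteins and scission, synaptic vesicles and the membrane skeleton, 91 were on the array and 44 were tested, while 39 lay below the minimum in every dog. In LBT against TZL, 5 of the 44 rose, 6 fell and 33 did not pass, a share of 25% called. Over all 7500 genes the share was 30.1%, with 17.8% higher and 12.4% lower in LBT. In PTCL against TZL, 1 rose and 3 fell, a share of 9.09% called. Over all genes it was 13.7%, with 7.6% higher and 6.07% lower in PTCL. Neither LBT against PTCL nor DLBCL against MZL gave a call among the 44.

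Among clathrin coat and adaptor genes 3 of 17 tested rose in LBT and 1 fell. AP2M1 and AP2B1, subunits of the plasma membrane adaptor complex AP-2, were higher in LBT than in TZL by 0.78 (limma adjusted p 0.000741) and 0.84 (limma adjusted p 0.0138) on the log2 scale. HIP1R, which links coats to actin, was higher by 0.93 (limma adjusted p 0.0134), a call lost without the arrays that stand apart and with lower values raised to the minimum, where its highest adjusted p was 0.0906. ITSN2, a scaffold of coated pits, fell by 1.52 (limma adjusted p 0.00890). None of the 17 passed in PTCL against TZL, and the list's median difference was -0.14 in LBT and -0.18 in PTCL, against 0.05 and 0.03 for all genes.

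Of 16 tested genes of BAR proteins, dynamins and scission, 13 did not pass in LBT and 13 did not pass in PTCL. BIN2, a BAR protein of blood cells related to AMPH, fell by 1.51 in LBT (limma adjusted p 0.000651) and by 1.48 in PTCL (limma adjusted p 0.00218) relative to TZL. WAS, the actin regulator of blood cells, fell by 0.97 in LBT (limma adjusted p 0.0106) and by 1.11 in PTCL (limma adjusted p 0.00875). TRIP10, an F-BAR relative of FNBP1L, fell by 1.72 in LBT (limma adjusted p 0.00257) and by 1.41 in PTCL (limma adjusted p 0.0237), and the PTCL call was lost without the arrays that stand apart and in a fit of the 2 groups alone (highest adjusted p 0.120). These 3 fell in each comparison and no tested gene of the list was called higher, beside 12.4% of all genes lower in LBT and 6.07% lower in PTCL. The median difference was -0.55 in LBT and -0.20 in PTCL.

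The synaptic vesicle and neuronal endosome list was nearly silent. Of its 17 genes 14 were on the array and 2 were tested. VAMP2, a vesicle fusion protein, fell by 2.10 in LBT relative to TZL (limma adjusted p 0.00354), and neither tested gene was called higher in LBT or PTCL. CALY, also on this list, was not tested, since it reached the minimum in too few dogs. It had 6.68 and 7.85 in LBT replicates 2 and 3.

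In the ankyrin and spectrin list 2 of 9 tested rose in LBT and 1 fell. EPB41L2, a band 4.1 protein that joins spectrin and actin, was higher by 3.46 in LBT (limma adjusted p 0.000121) and by 2.55 in PTCL (limma adjusted p 0.00649) relative to TZL. The PTCL call of EPB41L2 was lost without the arrays that stand apart (adjusted p 0.106). TMOD3, which caps actin filaments, was higher by 1.71 in LBT (limma adjusted p 0.0154), a call lost without the same arrays (adjusted p 0.0756). ADD3, an adducin, fell by 2.98 in LBT (limma adjusted p 0.00134).

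**Figure D5:**
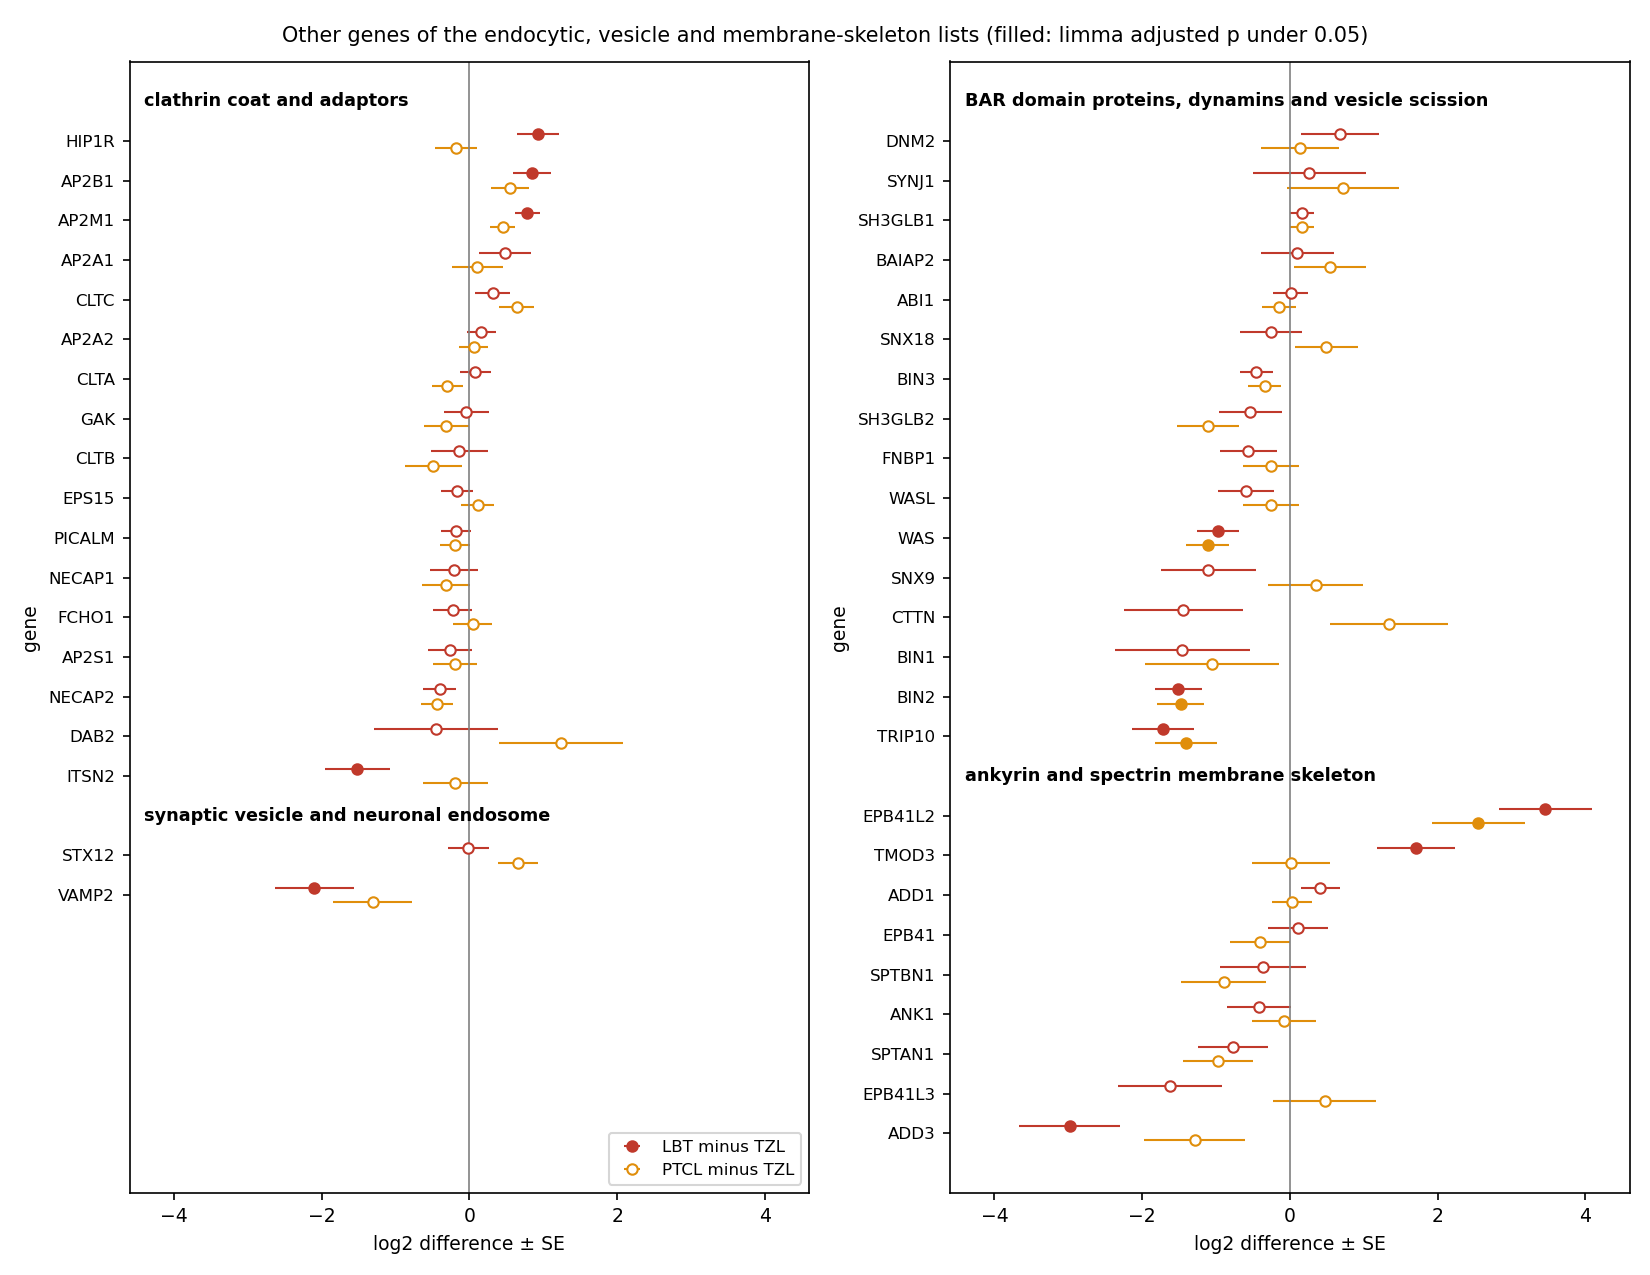
Log2 difference ± SE (horizontal axis) of LBT and of PTCL from TZL for each of the 44 tested genes of the 4 lists (rows), with filled points where the limma adjusted p was under 0.05. In LBT, 5 genes rose and 6 fell, and EPB41L2 at 3.46 lies farthest to the right.

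Close relatives of the 6 genes, named here for kinship after their values were seen, did not show the same pattern, though CALY shared it in part. BIN1, PICALM and FNBP1, the broadly expressed counterparts of AMPH, SNAP91 and FNBP1L, were bright in all disease states. PICALM averaged 8.84 ± 0.69 in LBT, 8.83 ± 0.18 in PTCL and 9.02 ± 0.19 in TZL (log2 intensity, SD, n = 4, 4 and 9). BIN1 averaged 6.56 ± 1.42 in LBT, 6.96 ± 1.54 in PTCL and 8.01 ± 0.95 in TZL. SH3GL1, SH3GL2, NSG2 and ANK2 lay below the minimum in every dog on the probe set that represents each. Whether those probe sets respond to their genes was not tested, so low values do not show that the genes were silent. ANK1, a relative of ANK3, lay below it in all LBT, PTCL and TZL dogs and reached at most 5.42 in DLBCL, 4.75 in BL and 4.92 in MZL. CALY, of the same small family as NSG1, reached the minimum in LBT replicates 2 and 3 alone, at 6.68 and 7.85.

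Markers of cells that normally carry the neuronal genes were set beside them. Of 12 neuron markers, 10 lay below the minimum in every dog, among them SNAP25, SYT1, SYP, MAP2, NEFL and RBFOX3. All 5 measured Schwann cell and glia markers and all 5 measured neuroendocrine markers lay below it in every dog as well. Low markers do not show here that a cell type was absent. The B-cell marker PAX5 lay below the minimum in every dog, B-cell tumours included, and so did 5 of 7 endothelium markers. The mean log2 intensity of the neuron list was 2.01 to 2.46 in LBT, 1.97 to 2.46 in PTCL and 1.89 to 2.16 in TZL. ELAVL4, a neuronal RNA-binding protein, was the one marker well above the minimum, since TUBB3 reached at most 4.18. ELAVL4 had 8.63, 2.25, 3.35 and 4.66 in LBT replicates 1 to 4, and 5.22, 7.49, 6.87 and 1.81 in PTCL replicates 1 to 4. It stayed at or below 2.52 in the TZL dogs.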

How the data were processed

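RNA from 36 arrays of 35 dogs had been labelled and hybridised to 43035 probe sets. The authors deposited linear intensities. The submitters' processing notes name GCRMA for their normalization, with no version stated. GCRMA models background from probe sequence, so values near the background are compressed and carry no order. Intensities were floored at 1 and put on the log2 scale, and the 2 arrays of 1 DLBCL dog, whose log2 values had r = 0.99, were averaged. Of the probe sets, 29254 had exactly 1 gene symbol in the platform annotation, and each gene took its probe set with the highest mean. The 6 genes were matched through their gene identifiers to the RefSeq gene table.

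Genes that reached log2 4 in 4 or more of 34 dogs, 7500 in number, were tested with limma 3.58.1 in R 4.3.3. The fit had 1 mean per subtype, 1 spread per gene shared by all 34 dogs, and two-sided tests. Each SE of a difference comes from that shared spread. P-values were adjusted by Benjamini-Hochberg over these genes, and calls were made under 0.05. The NBNT dog was left out as a single dog. The number of arrays per group limits the precision of every value. Replicate numbers follow the order of deposition and pair no samples.

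The genes, the lists of related genes and the marker lists were chosen with earlier results of these data known. Genes named in the text were the 6, the 3 closest other genes to each, and up to 4 called genes with the smallest adjusted p of each list, with kin of the 6 as an exception. Correlations over 8 dogs had each group's mean removed and were tested by exact permutation within groups. On simulated data with 7500 genes the limma step made calls at part of the changes put in, as checked before use. Those data had the same spread in every group, unlike the real groups, so the check bears on the code and not on error rates here. Alternatives were other filters, other scalings, array weights, a variance trend, the arrays that stand apart left out or as a block, sex and breed (Golden Retriever or other) as covariates, only the groups compared, the second probe set of a gene, and each dog left out in turn.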

Additional observations from a re-analysis of the deposited data

Results flagged for a closer look

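In 30 member groups of 4 to 10 dogs, the highest or lowest dog was compared with the others by Dixon's gap over range. Chance alone flags about 1 in 20 such groups, and 2 of the 30 stood out, both in the same dog. AMPH in DLBCL replicate 3 had a log2 intensity of 5.16, against 1.36 to 3.27 in the other DLBCL dogs. The other 2 AMPH probe sets lay below the minimum in this dog, at 3.30 and 1.99. ANK3 in DLBCL replicate 3 had a log2 intensity of 6.38, against 1.87 to 2.33 in the other DLBCL dogs. The other 7 ANK3 probe sets lay below the minimum in this dog, at most at 3.37. SNAP91, SH3GL3, FNBP1L and NSG1 were also below the minimum there. Epithelial markers had a mean log2 intensity of 7.38 in this dog. In the other DLBCL dogs it was 1.96 to 6.15, though the summed intensity of these markers was higher in DLBCL replicate 8 (2290) than in this dog (1684). The part of these markers in the AMPH and ANK3 values was not tested.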

How the results depend on the processing

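The number of genes called in LBT against PTCL was 51. It was 33 with a minimum of log2 6, 96 with lower values raised to the minimum, 82 with the arrays that stand apart as a block and 0 in a fit of the 2 groups alone, and it ran from 11 (without PTCL replicate 4) to 173 (without PTCL replicate 2) as each dog was left out. In DLBCL against MZL, 0 genes were called with limma. It was 17 with the minimum of log2 6, 39 with lower values raised to the minimum, 378 with array weights and 19 without the arrays that stand apart, and it ran from 0 to 72 (without DLBCL replicate 3) as each dog was left out. In PTCL against TZL it was 1025, 547 without the arrays that stand apart, and 589 (without PTCL replicate 2) to 1086 as each dog was left out. In LBT against TZL it was 2259, and 1727 to 2475 over every alternative run. Of the member pairs 0 of 15 passed the adjusted threshold, and 1 (AMPH and SH3GL3, exact permutation, adjusted p 0.00856) did with group means kept. With 1 dog left out, 0 passed in each case, but 144 permutations leave a single pair no adjusted p under 0.104, so this says nothing about stability. SNAP91 in LBT against PTCL turned to -0.82 on its second probe set and to -0.98 without PTCL replicate 4, and was at most 1.38 as each dog was left out. The SH3GL3 difference of 3.76 ranged from 1.13 to 5.18 over all alternatives and the FNBP1L difference of 4.31 from 2.81 to 5.05. AMPH ran from 0.76 to 3.58, NSG1 from 0.54 to 3.07 and ANK3 from 0.97 to 3.13. The cause of these changes was not tested. All LBT minus TZL differences kept their direction over the alternatives run, in sizes that the minimum of GCRMA values limits. That contrast chose the genes, so the kept direction says nothing about stability. No paired analysis was possible because replicate numbers follow the order of deposition and no label pairs dogs across groups.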

Other observations

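The NBNT dog, which stands in no group, lay below the minimum for all 6 genes, with log2 intensities of 1.92 for AMPH, 2.30 for SNAP91, 2.05 for SH3GL3, 2.58 for FNBP1L, 2.40 for NSG1 and 2.13 for ANK3.

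Within the low-grade and B-cell tumours the genes showed no common variation that could be read, since most values lay below the minimum. Over the 15 pairs the Pearson r had a median of 0.18 in the 9 TZL dogs and -0.05 in the 10 DLBCL dogs. The highest DLBCL value, 0.90 for AMPH and ANK3, came with DLBCL replicate 3, the one dog in which both reached the minimum.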
